A study of Homo sapiens with 12 samples.

Results

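Genes that slow the cell cycle or are classical targets of the tumour suppressor p53 were followed through 4 treatments of the MDA-MB-231 cell line. The genes taken from the deposited table were those named CDKN1A, CDKN1B, PLK2, PLK3, GADD45A, GADD45B, MDM2, SESN1 and GDF15. These names picked out 9 of the 57905 genes in the table, and all 9 passed the filter on low counts that left 15142 genes for testing. MDA-MB-231 is an established human triple-negative breast cancer line. Dishes plated in triplicate were exposed for 48 h to 1 µM SFN, to 0.5 µM ZA, to 1 µM SFN with 0.5 µM ZA (SFN+ZA), or to vehicle, which held DMSO at 0.01% and water at 0.05%. Each of the 4 groups had 3 libraries. In breast cancer work SFN usually stands for sulforaphane, a broccoli isothiocyanate, and ZA for the bisphosphonate zoledronic acid, but the labels spell out neither name. The treatment SFN is not the gene of that symbol.

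In cells with working p53, DNA damage and other stress stabilise the protein, which then switches on CDKN1A to halt the cycle, GADD45A to aid repair and stress signalling, and MDM2, whose product in turn marks p53 for destruction. MDA-MB-231 is known for a deletion of the CDKN2A locus. Several of the 9 genes are also driven without p53, for example GDF15 and GADD45A by the transcription factors of the integrated stress response and CDKN1A by TGF-beta signalling.

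Markers of the line were checked first. The mesenchymal filament gene VIM measured 931 to 2198 CPM (counts scaled to library size by TMM) and CD44 760 to 959 CPM over the 12 libraries. The receptor genes ESR1 and PGR did not exceed 0.124 CPM, and CD3E, a T cell marker, was at 0. Some other genes listed as low in the line, or as markers of luminal lines, were not low. The receptor gene ERBB2 measured 27.5 to 127 CPM and the keratin gene KRT19 177 to 502 CPM. The luminal markers TFF1 and FOXA1 did not exceed 0.556 CPM. Of the fibroblast markers, PDGFRB averaged 23.3 CPM, COL1A2 14.4 CPM and COL1A1 12.7 CPM. The epithelial adhesion gene EPCAM averaged 22.2 CPM and the luminal transcription factor gene GATA3 17.3 CPM, while the E-cadherin gene CDH1 measured 0.711 to 2.93 CPM. Libraries held 15.3 M to 25.4 M counts. Among them SFN 2 and vehicle 2 were unlike the rest: the first principal component (70.4% of the variance) put SFN 2 at 169.9, vehicle 2 at 67.4 and every other library under 0, from -47.5 up to -3.99. Transcripts rich in G and C bases had low values in both: Spearman's rho over genes, which are not independent replicates, of a gene's deviation against its transcript's GC content came to -0.805 for SFN 2 and -0.604 for vehicle 2. In the other 10 libraries rho ran between -0.470 and 0.644. It was -0.416 in SFN 1 and -0.434 in SFN 3, against 0.644, 0.230 and 0.369 in SFN+ZA. ZA (-0.470, 0.562 and 0.634) and vehicle 1 and 3 (0.536 and -0.250) were mixed in sign. Leaving out SFN 2 and vehicle 2 therefore does not remove the difference in GC trend between SFN and SFN+ZA. The differences below that lean most on SFN 2 or vehicle 2 are given with and without them.

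The 9 genes split by base composition. The longest annotated transcript held 58.1% G and C for CDKN1A, 59.6% for GADD45B, 61.2% for PLK3 and 62.9% for GDF15, while MDM2, SESN1, PLK2, CDKN1B and GADD45A ran between 41.9 and 51.5%. In SFN 2 the 4 GC-rich genes lay far below their 12-library median, with log2 deviations of -1.34 for GADD45B, -2.27 for CDKN1A, -2.44 for GDF15 and -3.83 for PLK3. The other 5 deviated there by -0.29 to 0.52. In vehicle 2 the deviations of the 4 GC-rich genes ran between -1.09 and 0.062 and those of the other 5 between -0.13 and 0.078. The part that GC content played in each gene's level was not tested gene by gene, and a GC-adjusted level, in which the smooth trend of each library over GC was divided out, is given beside the CPM of the genes it touches.

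**Figure D1:**
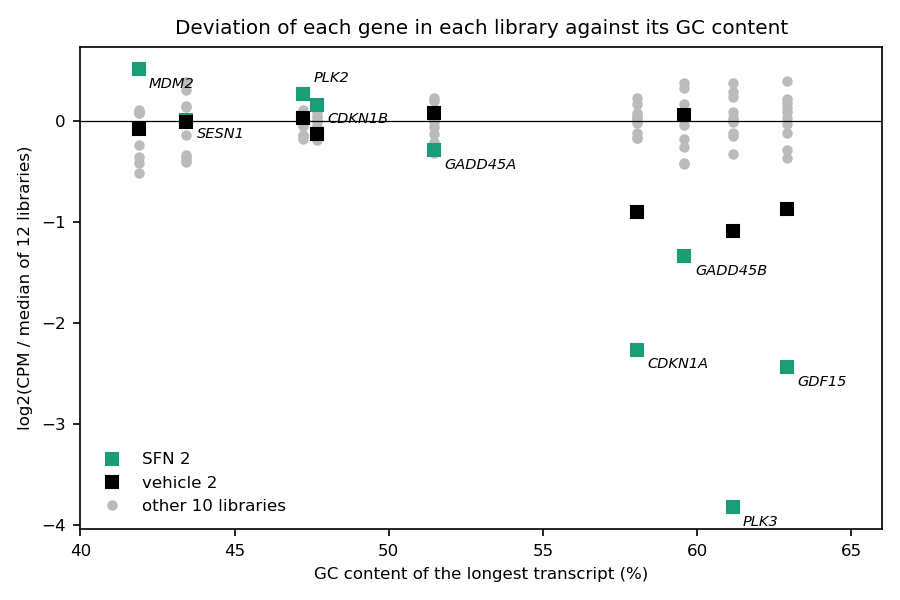
Deviation of each of the 9 genes from its 12-library median (log2, vertical axis) against the GC content of its longest transcript in percent (horizontal axis), with 1 point per library. Green squares are SFN 2, black squares vehicle 2 and grey points the other 10 libraries; in SFN 2 the 4 genes over 55% GC lie between -3.83 and -1.34, and the other 5 between -0.29 and 0.52.

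The 120 bases upstream of the transcription start are shown for the 4 GC-rich genes, which shared the low values in SFN 2, and for MDM2, which had its highest value there. GC-rich refers here to the transcripts, not to these upstream bases. Over 250 upstream bases, G and C made up 76.4% in CDKN1A, 70.0% in PLK3, 63.2% in GADD45B, 58.4% in GDF15 and 74.4% in MDM2. The sequences are RefSeq's on GRCh38.p14, all from the plus strand, at chr6:36678594-36678713 (CDKN1A), chr1:44800257-44800376 (PLK3), chr19:2476007-2476126 (GADD45B), chr19:18386038-18386157 (GDF15) and chr12:68808052-68808171 (MDM2). Capitals mark matches, on either strand, to the GC box GGGCGG, the TATA box TATAAA and the CCAAT box; neighbouring matches that touch or overlap run together.
CDKN1A: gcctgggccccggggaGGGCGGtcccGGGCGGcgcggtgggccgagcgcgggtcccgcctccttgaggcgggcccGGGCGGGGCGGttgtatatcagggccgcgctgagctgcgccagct
PLK3: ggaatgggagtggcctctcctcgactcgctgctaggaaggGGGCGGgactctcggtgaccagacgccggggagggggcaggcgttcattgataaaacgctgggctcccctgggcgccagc
GADD45B: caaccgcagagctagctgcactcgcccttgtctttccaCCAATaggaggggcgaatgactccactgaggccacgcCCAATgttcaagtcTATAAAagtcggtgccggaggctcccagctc
GDF15: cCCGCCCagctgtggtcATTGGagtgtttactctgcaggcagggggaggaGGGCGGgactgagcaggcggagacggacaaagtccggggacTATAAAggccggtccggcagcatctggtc
MDM2: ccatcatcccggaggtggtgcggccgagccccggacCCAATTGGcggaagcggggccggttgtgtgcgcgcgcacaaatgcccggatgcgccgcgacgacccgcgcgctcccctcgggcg

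Over 250 upstream bases, the GC box occurred 7 times in SESN1, 4 times in CDKN1A, 2 times each in GDF15 and PLK2, 1 time each in CDKN1B and PLK3, and 0 times in GADD45B and MDM2. It occurred in 42.6% of all 35116 promoters searched. The TATA box, which was in 10.7% of promoters, was found in GADD45B and GDF15. The CCAAT box was in 32.0% of promoters and in 4 of the 8 members with a sequence (CDKN1B, MDM2, GDF15 and GADD45B). The full p53 response element consensus was in 0.0256% of promoters and in 0 of the 8, and this window does not reach the distal or intronic elements through which p53 is known to act on several of these genes. A match is a description of letters and does not show that a factor bound there.

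Levels between genes were compared on the authors' deposited FPKM, which divides by gene length. In vehicle cells PLK2 was at 48.0 ± 1.48 FPKM (SD, n = 3 here and below), CDKN1A at 39.3 ± 14.5, GADD45A at 27.5 ± 0.974, CDKN1B at 19.0 ± 1.54 and GADD45B at 15.1 ± 2.82. GDF15 followed at 12.1 ± 5.60 FPKM, MDM2 at 7.28 ± 0.808, PLK3 at 4.32 ± 1.40 and SESN1 at 1.17 ± 0.163. The ranges of neighbours in this order overlapped for PLK2 and CDKN1A, CDKN1A and GADD45A, CDKN1B and GADD45B, GADD45B and GDF15, and GDF15 and MDM2. They did not overlap for GADD45A and CDKN1B, MDM2 and PLK3, or PLK3 and SESN1. CDKN1A overlapped GADD45A, and GDF15 overlapped MDM2, only through vehicle 2, where CDKN1A was at 23.4 and GDF15 at 7.47 FPKM. In SFN+ZA cells PLK3 was at 7.28 ± 0.382 FPKM and MDM2 at 6.97 ± 1.15 FPKM, with overlapping ranges.

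None of the 9 genes passed the test in any comparison. By edgeR's quasi-likelihood test with Benjamini-Hochberg adjustment, 0 of the 15142 genes tested (percent called 0) had an adjusted p under 0.05 for SFN, ZA or SFN+ZA against vehicle, for SFN+ZA against SFN or against ZA, or for the interaction, so the count of members is the same as the background. At an unadjusted p under 0.05 there were 753 genes for SFN, 173 for ZA and 744 for SFN+ZA against vehicle, 3312 for SFN+ZA against SFN, 159 for SFN+ZA against ZA and 257 for the interaction. DESeq2's Wald test called 0, 0, 21, 6, 0 and 0 genes in the same order, and 0 of them were among the 9. In the authors' deposited table, 0 of the 9 genes had an adjusted p under 0.05 in any of its 6 comparisons. The lowest there was 0.347, in SFN+ZA against vehicle. A p that misses the threshold does not show that levels were alike. Because nothing in the labels says that replicates came from separate cultures, p-values here measure the spread between dishes, which may be technical. In bulk RNA, fewer cells holding a transcript and less of it per cell cannot be told apart.

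**Figure D2:**
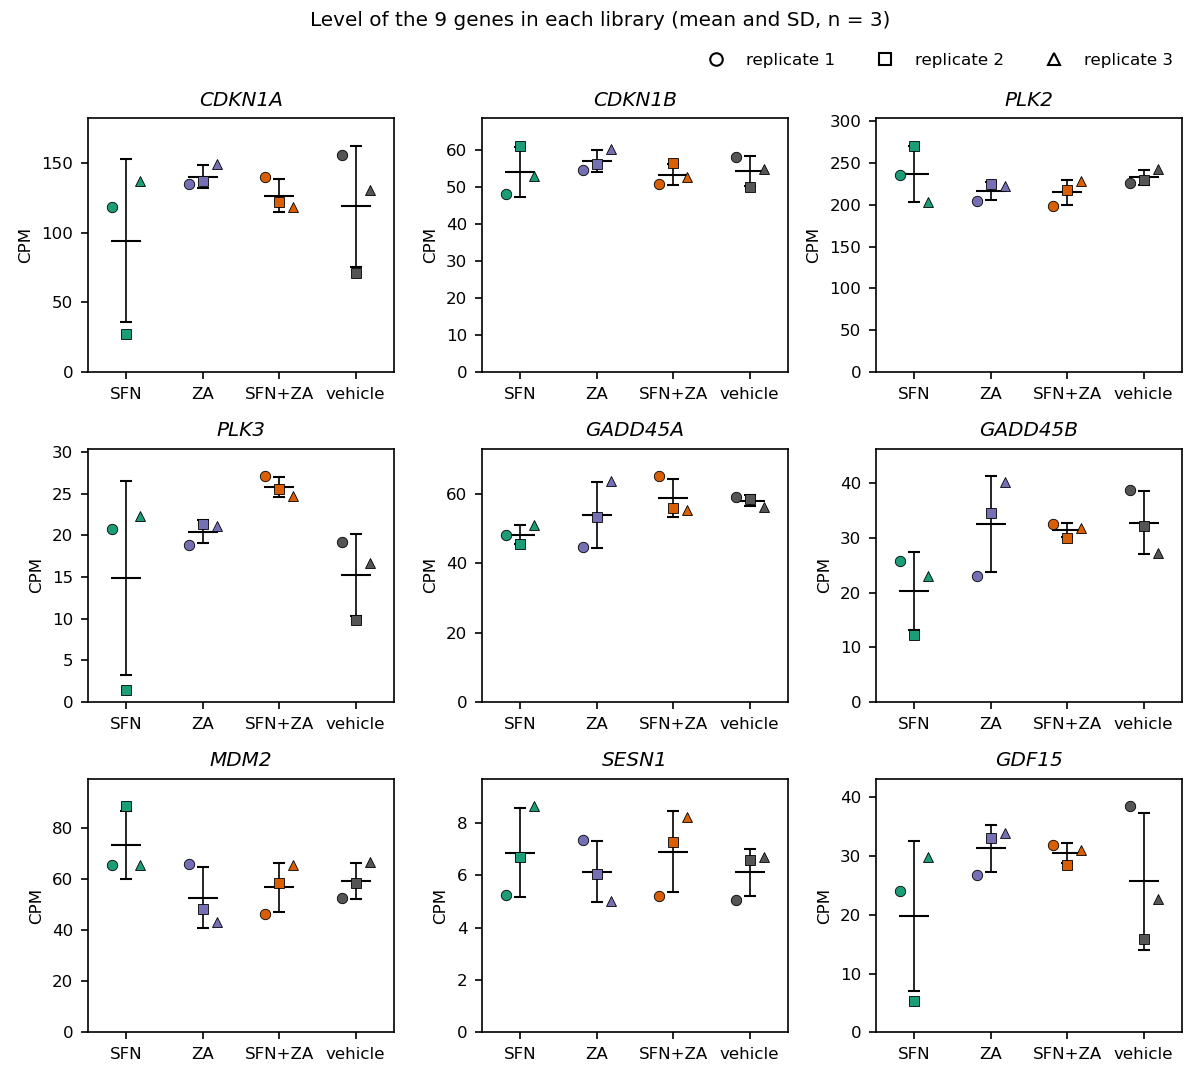
CPM of each of the 9 genes (vertical axes, from 0) in the 3 libraries of SFN, ZA, SFN+ZA and vehicle; circles, squares and triangles are replicates 1, 2 and 3, and lines give the mean and SD. The squares of SFN lie far below the rest for CDKN1A, PLK3, GDF15 and GADD45B (27.6, 1.47, 5.38 and 12.2 CPM), and those of MDM2 lie above (88.8 CPM).

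CDKN1A encodes p21, an inhibitor of cyclin-CDK complexes and of the replication clamp PCNA (ENSG00000124762, GRCh37/hg19 chromosome 6, 36644305 to 36655116). It measured 119, 27.6 and 137 CPM in SFN 1, 2 and 3, 135, 137 and 149 CPM in ZA, 140, 122 and 118 CPM in SFN+ZA, and 156, 71.1 and 131 CPM in vehicle. Apart from SFN 2 and vehicle 2, the other 10 libraries lay between 118 and 156 CPM, and the groups overlapped. The log2 fold change against vehicle was -0.34 ± 0.46 for SFN (SE; adjusted p = 0.79), 0.24 ± 0.46 for ZA (adjusted p = 0.98) and 0.089 ± 0.46 for SFN+ZA (adjusted p = 0.95). Without SFN 2 and vehicle 2 the log2 fold change was -0.17 ± 0.13 for SFN (adjusted p = 0.58) and -0.038 ± 0.11 for ZA (adjusted p = 1.0), and for SFN+ZA it was -0.19 ± 0.11 (adjusted p = 0.55); the last 2 were of the opposite sign to the values with all libraries. With the GC trend taken out as well it was -0.27 ± 0.077, and its adjusted p of 0.062 was the second lowest of any member under any setting run. In GC-adjusted CPM, CDKN1A measured 118, 119 and 112 in SFN+ZA, against 141, 110 and 137 in vehicle, where vehicle 2 lay below all of SFN+ZA. The 3 SFN+ZA libraries lay below those of ZA (145, 126 and 129) on this scale, as did 9.03% of all genes tested.

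CDKN1B encodes p27, the related inhibitor that holds cells in quiescence and is removed by the SKP2 ubiquitin ligase (ENSG00000111276, chromosome 12, 12867992 to 12875305). It was among the steadiest of the 9, at 48.0, 61.1 and 52.8 CPM in SFN, 54.5, 56.2 and 60.3 CPM in ZA, 50.8, 56.4 and 52.5 CPM in SFN+ZA, and 58.0, 49.9 and 54.7 CPM in vehicle. All 12 libraries lay within a ratio of 1.27 of each other. Its log2 fold change against vehicle was between -0.025 and 0.074 in the 3 treatments, with an SE of 0.13 in each.

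PLK2 and PLK3 are polo-like kinases, a family that includes the mitotic kinase PLK1, but both are better known as stress-responsive genes with roles in checkpoints and centriole duplication. PLK2 (ENSG00000145632, chromosome 5, 57749809 to 57756087, minus strand) measured 236, 271 and 204 CPM in SFN, 205, 225 and 222 CPM in ZA, 199, 218 and 228 CPM in SFN+ZA, and 226, 229 and 243 CPM in vehicle. All 3 ZA libraries lay just below the vehicle libraries, the only member whose groups did not overlap in that comparison, where 3.05% of all genes tested lay apart and lower. The difference, -0.10 ± 0.13 on the log2 scale, was not called (adjusted p = 0.98), and in GC-adjusted CPM the groups overlapped.

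PLK3 (ENSG00000173846, chromosome 1, 45265897 to 45271662) measured 20.7, 1.47 and 22.3 CPM in SFN, 18.8, 21.3 and 21.1 CPM in ZA, 27.1, 25.5 and 24.7 CPM in SFN+ZA, and 19.3, 9.83 and 16.7 CPM in vehicle. The value of SFN 2 rested on 26 reads, against 175 to 537 in the other 11 libraries. All 3 SFN+ZA libraries lay above the other 9, a pattern that 2.88% of all genes tested shared; over vehicle alone 11.5% lay apart and higher, over SFN alone 23.4% and over ZA alone 6.99%. In GC-adjusted CPM, PLK3 measured 22.4, 6.97 and 24.1 in SFN, 20.6, 19.2 and 17.7 in ZA, 21.9, 24.7 and 23.0 in SFN+ZA, and 17.0, 18.9 and 17.6 in vehicle. On that scale SFN+ZA still lay above all of ZA, as 9.56% of genes did, and all of vehicle, as 10.6% did, while SFN 1 and 3 lay among the SFN+ZA libraries.

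The log2 fold change of PLK3 in SFN+ZA was 0.76 ± 0.66 against vehicle (SE; adjusted p = 0.86), 0.80 ± 0.66 against SFN (adjusted p = 0.41) and 0.34 ± 0.65 against ZA (adjusted p = 1.0). Without SFN 2 and vehicle 2 the value against SFN was 0.25 ± 0.12 (adjusted p = 0.23) and that against vehicle 0.50 ± 0.12 (adjusted p = 0.12), and with the GC trend also taken out it was 0.41 ± 0.11 (adjusted p = 0.052), the lowest adjusted p of any member under any setting. For SFN alone against vehicle the log2 fold change was -0.041 ± 0.66 (adjusted p = 0.98) with all libraries, 0.25 ± 0.13 (adjusted p = 0.52) without those 2, and 0.42 ± 0.12 (adjusted p = 0.23) without them and with the GC trend taken out. SFN+ZA and SFN then differed by -0.0097 ± 0.11 log2 units (adjusted p = 0.97). PLK3 overlaps TCTEX1D4, on the opposite strand, which averaged 0.617 CPM.

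**Figure D3:**
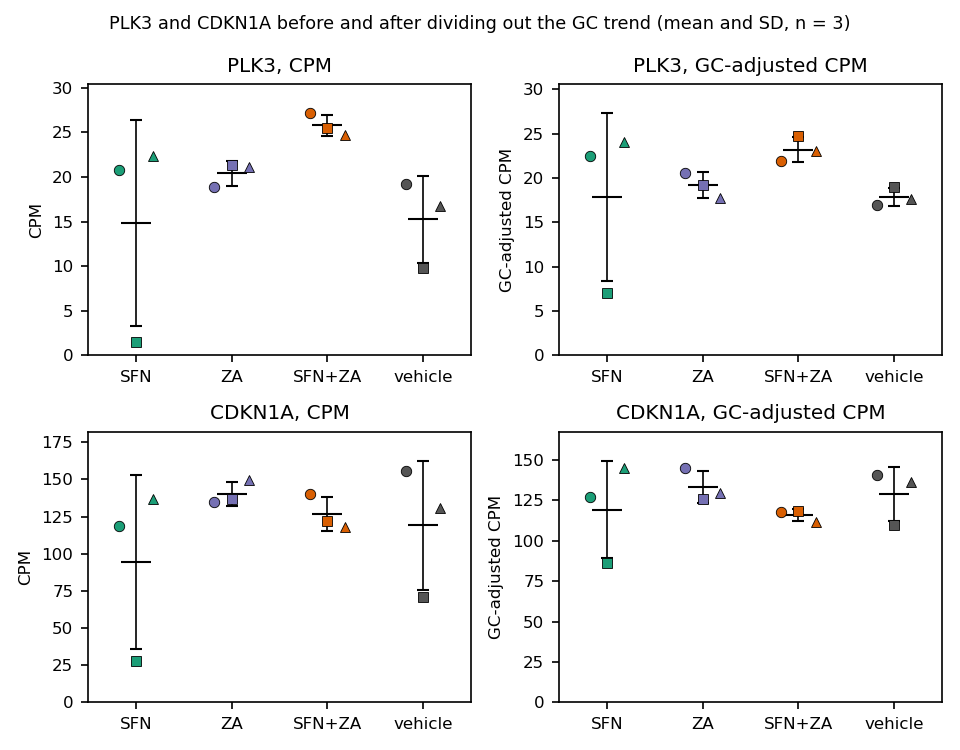
PLK3 (top) and CDKN1A (bottom) in each library as CPM (left) and as CPM after dividing out each library's GC trend (right), with mean and SD of 3 libraries per group; symbols are replicates 1 (circle), 2 (square) and 3 (triangle). After adjustment, PLK3 in SFN+ZA (21.9 to 24.7) stays above ZA (17.7 to 20.6) and vehicle (17.0 to 18.9), and CDKN1A in SFN+ZA (112 to 119) lies below ZA (126 to 145).

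GADD45A and GADD45B encode small stress sensors that bind and activate the kinase MAP3K4 upstream of p38 and JNK; GADD45A is a p53 target and GADD45B is induced by NF-kB and TGF-beta. GADD45A (ENSG00000116717, chromosome 1, 68150744 to 68154021) measured 48.0, 45.4 and 50.9 CPM in SFN, 44.5, 53.3 and 63.6 CPM in ZA, 65.1, 55.8 and 55.2 CPM in SFN+ZA, and 59.0, 58.6 and 56.2 CPM in vehicle. All 3 SFN libraries lay below every vehicle and every SFN+ZA library. GADD45B (ENSG00000099860, chromosome 19, 2476120 to 2478257) measured 25.8, 12.2 and 23.0 CPM in SFN, 23.0, 34.6 and 40.2 CPM in ZA, 32.6, 30.0 and 31.7 CPM in SFN+ZA, and 38.8, 32.2 and 27.3 CPM in vehicle. Its SFN libraries, too, lay below every vehicle and SFN+ZA library.

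These were the 2 members that lay apart and lower in SFN than in vehicle, where 3.48% of all genes did. The log2 fold change in SFN against vehicle was -0.27 ± 0.15 for GADD45A and -0.69 ± 0.28 for GADD45B (adjusted p = 0.73 for each), and GADD45B's unadjusted p of 0.034 was the only one under 0.05 among the members in that comparison. SFN+ZA against SFN gave 0.29 ± 0.15 for GADD45A (adjusted p = 0.26) and 0.63 ± 0.28 for GADD45B (adjusted p = 0.23). Together with PLK3 they were the 3 members that lay apart and higher in SFN+ZA than in SFN, a comparison in which 23.4% of all genes did.

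Without SFN 2 and vehicle 2, GADD45B was at -0.44 ± 0.23 in SFN against vehicle (adjusted p = 0.52) and at 0.36 ± 0.21 in SFN+ZA against SFN (adjusted p = 0.29). GADD45A was at -0.23 ± 0.15 (adjusted p = 0.56) and 0.24 ± 0.14 (adjusted p = 0.30) in these comparisons. In GC-adjusted CPM GADD45A measured 49.3, 62.2 and 51.9 in SFN, against 56.9, 64.9 and 57.1 in vehicle. GADD45B measured 27.8, 46.7 and 24.6 in SFN, against 34.6, 55.4 and 28.6 in vehicle, so that SFN 2 and vehicle 2 became the highest of their groups and the groups overlapped for both genes. The labels do not say that a replicate number marks a shared culture, day or batch. Taken by replicate number all the same, SFN was below vehicle on this scale in 3 of 3 pairs for these 2 of the 9 members. The same held for 15.5% of all genes tested, and the same libraries had already set these 2 genes apart in CPM. With the GC trend taken out over all 12 libraries, SFN against vehicle gave -0.13 ± 0.13 for GADD45A and -0.28 ± 0.27 for GADD45B (adjusted p = 0.87 for each). With the replicate number as a block as well, it gave -0.13 ± 0.13 for GADD45A (adjusted p = 0.89) and -0.27 ± 0.21 for GADD45B (adjusted p = 0.88). For SFN+ZA against SFN, the fit with the GC trend taken out over all 12 libraries gave GADD45A 0.063 ± 0.13 (adjusted p = 0.82). GADD45B, now of the opposite sign, had -0.18 ± 0.27 (adjusted p = 0.74). Both values lean on SFN 2. GC-adjusted CPM of GADD45A in SFN+ZA was 61.3, 55.2 and 54.1, with SFN 1 and 3 below all of these and SFN 2 above. For GADD45B it was 26.9, 29.1 and 29.8, with SFN 3 below all of these, SFN 1 among them and SFN 2 above.

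In SFN+ZA against vehicle the log2 fold change was 0.019 ± 0.15 for GADD45A and -0.059 ± 0.28 for GADD45B with all libraries. With the GC trend taken out it was -0.068 ± 0.13 for GADD45A (adjusted p = 0.86) and -0.46 ± 0.26 for GADD45B (adjusted p = 0.50). The value for GADD45B leans on vehicle 2, at 55.4 GC-adjusted CPM. Vehicle 1 was at 34.6, and vehicle 3, at 28.6, lay among the SFN+ZA libraries (26.9, 29.1 and 29.8). The interaction, the effect of the combination beyond the sum of the separate effects on the log2 scale, was 0.39 ± 0.21 for GADD45A and 0.64 ± 0.40 for GADD45B (adjusted p = 0.90 for each). In the 10 libraries without SFN 2 and vehicle 2 it was 0.35 ± 0.20 for GADD45A (adjusted p = 0.59) and 0.38 ± 0.29 for GADD45B (adjusted p = 0.61).

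MDM2 encodes the ubiquitin ligase that degrades p53 and is itself a p53 target (ENSG00000135679, chromosome 12, 69201956 to 69239214). It measured 65.6, 88.8 and 65.9 CPM in SFN, 66.2, 48.6 and 43.5 CPM in ZA, 46.6, 58.4 and 65.7 CPM in SFN+ZA, and 52.6, 58.6 and 67.0 CPM in vehicle. SFN 2 was the highest of the 12 libraries, and SFN overlapped vehicle only through vehicle 3. The log2 fold change was 0.31 ± 0.21 for SFN against vehicle (adjusted p = 0.73) and -0.37 ± 0.21 for SFN+ZA against SFN (adjusted p = 0.28). With SFN 2 and vehicle 2 left out they were 0.13 ± 0.20 (adjusted p = 0.79) and -0.22 ± 0.18 (adjusted p = 0.46). With the GC trend taken out over all 12 libraries these were 0.065 ± 0.13 and -0.025 ± 0.13, and GC-adjusted CPM in SFN was 62.2, 59.8 and 61.2. MDM2 is overlapped by 4 other genes, of which the highest averaged 4.11 CPM.

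SESN1 encodes a sestrin, a p53 target whose product restrains mTORC1 signalling (ENSG00000080546, chromosome 6, 109307640 to 109416022, minus strand). It had the lowest FPKM of the 9 and measured 5.23, 6.69 and 8.63 CPM in SFN, 7.33, 6.03 and 5.01 CPM in ZA, 5.18, 7.27 and 8.22 CPM in SFN+ZA, and 5.06, 6.57 and 6.69 CPM in vehicle. These values rested on 76 to 152 reads per library. The groups overlapped in every comparison, and the log2 fold change against vehicle was 0.17 ± 0.26 for SFN, 0.0045 ± 0.26 for ZA and 0.17 ± 0.26 for SFN+ZA.

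GDF15 encodes a secreted TGF-beta family cytokine that signals through the receptor GFRAL and is induced by mitochondrial and ER stress as well as by p53 (ENSG00000130513, chromosome 19, 18485541 to 18499986). It measured 24.0, 5.38 and 29.9 CPM in SFN, 26.8, 33.1 and 34.0 CPM in ZA, 31.8, 28.5 and 31.0 CPM in SFN+ZA, and 38.5, 15.9 and 22.7 CPM in vehicle. As for CDKN1A, SFN 2 and vehicle 2 were the lowest, and the groups overlapped in every comparison. The log2 fold change was -0.38 ± 0.50 for SFN against vehicle (adjusted p = 0.78), 0.28 ± 0.49 for ZA (adjusted p = 0.98) and 0.25 ± 0.49 for SFN+ZA (adjusted p = 0.89). Leaving out SFN 2 and vehicle 2, it was -0.19 ± 0.21 for SFN, 0.026 ± 0.19 for ZA and -0.022 ± 0.19 for SFN+ZA. GC-adjusted CPM was 26.0, 32.2 and 32.5 in SFN, 29.6, 29.7 and 28.0 in ZA, 25.1, 27.5 and 28.6 in SFN+ZA, and 33.6, 35.1 and 24.0 in vehicle.

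**Figure D4:**
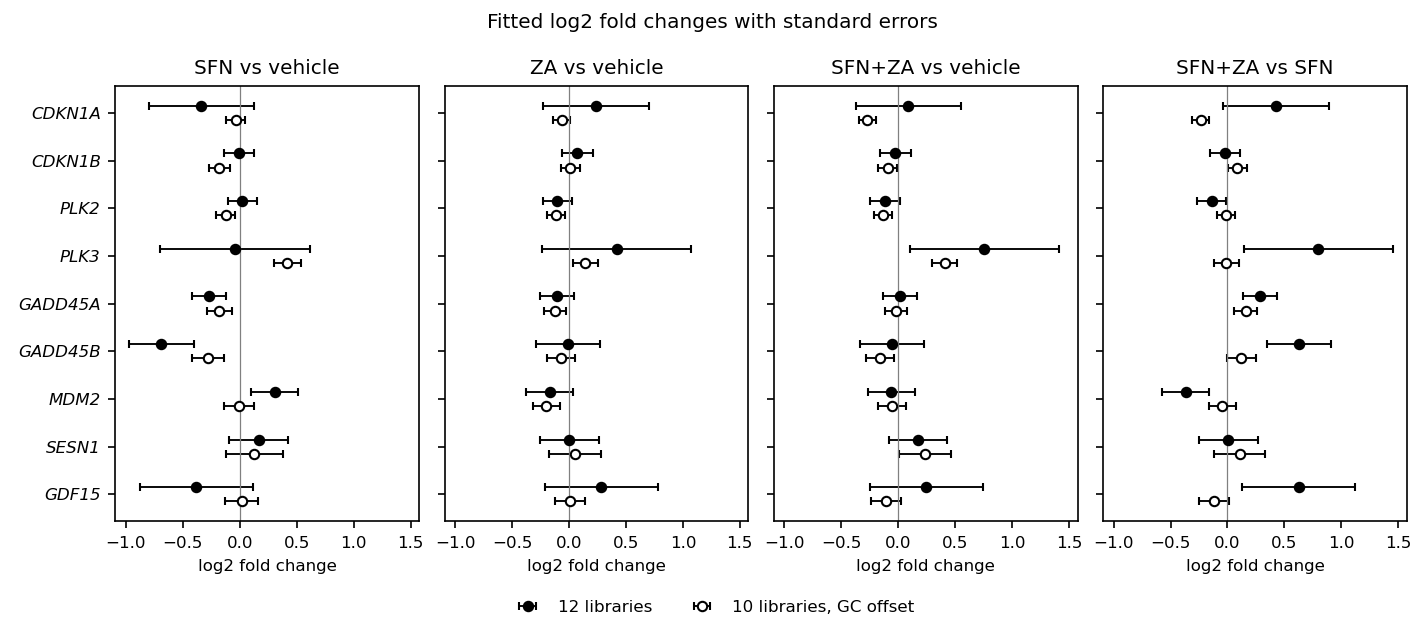
Log2 fold change (horizontal axis) of each of the 9 genes in 4 comparisons, with bars for the standard error; filled circles use all 12 libraries and open circles the 10 libraries without SFN 2 and vehicle 2 with the GC trend taken out. The open circle of PLK3 lies at 0.41 for SFN+ZA against vehicle and at -0.0097 for SFN+ZA against SFN.

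Signs across the 9 genes were mixed. For SFN against vehicle 3 lay above 0 and 6 below, with a median log2 fold change of -0.041, beside a median of -0.0094 over all genes tested. For ZA against vehicle 5 lay above and 4 below (median 0.0045, beside 0.0041), and for SFN+ZA against vehicle 5 above and 4 below (median 0.019, beside 0.011). For SFN+ZA against SFN 6 lay above and 3 below, with a median of 0.29 beside 0.045. The median of the members without SFN 2 and vehicle 2 was -0.17 for SFN (3 above, 6 below; 0.0028 over all 15353 genes then tested), -0.028 for ZA (4 above, 5 below; -0.0079) and -0.087 for SFN+ZA (3 above, 6 below; -0.022). For SFN+ZA against SFN it was 0.070 without them (5 above, 4 below; 0.0075), and -0.025 with the GC trend taken out over all 12 libraries (4 above, 5 below; -0.0045). The 3 comparisons with vehicle share its libraries, and the comparison with SFN reuses the SFN and SFN+ZA libraries.

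The lists that follow are described from the fit of all 12 libraries, in which 0 of their genes passed. Over all genes tested in SFN+ZA against vehicle, 7745 lay above 0 and 7397 below, with a median log2 fold change of 0.011. Without SFN 2 and vehicle 2, 7058 lay above and 8295 below (median -0.022). Of 34 other p53 target genes, 32 were tested. In SFN+ZA against vehicle 16 lay above 0 and 16 below, with a median log2 fold change of -0.063. Among the highest were the BH3-only cell death gene BBC3 (0.55 ± 0.93) and the mitochondrial reductase FDXR (0.40 ± 0.67). The lowest were the ribosomal protein paralog RPS27L (-0.68 ± 0.41), TRIAP1 (-0.58 ± 0.28), a small mitochondrial survival factor, and the death receptor gene FAS (-0.51 ± 0.29). The adjusted p was 0.86 to 0.88 for these 5. Transcript GC content was 69.7% for BBC3 and 61.8% for FDXR, and 39.1 to 43.6% for the 3 lowest; its part in their order was not tested.

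MDM4, whose product binds and restrains p53 alongside MDM2, was at 49.4 ± 2.43 CPM in SFN+ZA and 38.1 ± 6.02 CPM in vehicle (SD, n = 3 each), with a log2 fold change of 0.37 ± 0.15 (adjusted p = 0.86); in SFN, at 50.7 ± 5.63 CPM, it had 0.41 (adjusted p = 0.73). MDM4 in SFN+ZA was at 0.49 ± 0.13 without SFN 2 and vehicle 2 (adjusted p = 0.14). With the GC trend also taken out it was 0.52 ± 0.088 and passed (adjusted p = 0.0047 by edgeR's quasi-likelihood test), as did ATM, a damage kinase upstream of p53, at 0.32 ± 0.083 (adjusted p = 0.048). In that fit, chosen after seeing the data, 3.15% of all genes passed, and 0 of the 9 members did. By the same test neither gene passed with the GC trend taken out over all 12 libraries. MDM4 then had 0.48 ± 0.14 (adjusted p = 0.32) and ATM 0.32 ± 0.11 (adjusted p = 0.34). With the GC trend left in, ATM had 0.17 ± 0.19 over all 12 libraries (adjusted p = 0.86). It had 0.26 ± 0.17 without SFN 2 and vehicle 2 (adjusted p = 0.58). GC-adjusted CPM of MDM4 was 51.6, 52.2 and 52.2 in SFN+ZA, against 36.2, 40.1 and 35.3 in vehicle; the groups lay apart, as 10.6% of genes did in that direction. The 12 p53 family members and regulators tested were mixed in sign with all libraries. In SFN+ZA against vehicle 7 lay above 0 and 5 below, with a median of 0.043. The highest after TP73 (0.55 ± 0.59) and MDM4 was the acetyltransferase CREBBP (0.31 ± 0.26), and among the lowest were the damage kinase ATR (-0.23 ± 0.25) and the phosphatase PPM1D (-0.16 ± 0.20).

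Of 6 other CDK inhibitors 4 were tested. CDKN2A and CDKN2B, neighbours at the locus known to be deleted in the line, had 0 counts in all 12 libraries, where a count of 0 allows up to 3 counts, or 0.118 to 0.197 CPM. The rest had small log2 fold changes in SFN+ZA against vehicle, from CDKN2D (0.24 ± 0.39) through CDKN3 (0.039 ± 0.25) and CDKN2C (0.019 ± 0.20) to CDKN1C (-0.0044 ± 0.29). CDKN1C, which encodes p57, was lower by 0.43 ± 0.11 on the log2 scale without SFN 2 and vehicle 2 and with the GC trend taken out (adjusted p = 0.046 by edgeR's quasi-likelihood test). In that fit 3.15% of all genes passed. By the same test CDKN1C was not called in 2 other fits. It had -0.33 ± 0.16 without those 2 libraries alone (adjusted p = 0.44). With the GC trend taken out over all 12 libraries it had -0.44 ± 0.51 (adjusted p = 0.76). All 4 inhibitors lay below 0 without SFN 2 and vehicle 2, with a median of -0.19, against a median of 0.029 with all 12.

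Among the cyclins, kinases and turnover factors with which p21 and p27 act, 17 entries for 16 genes were tested. CKS1B was entered more than once, and each of its entries is counted below. In SFN+ZA against vehicle 5 lay above 0 and 12 below, with a median log2 fold change of -0.18, and of -0.086 without SFN 2 and vehicle 2 (4 above, 13 below). The lowest were the mitotic cyclin CCNB1 (-0.41 ± 0.18; 339 ± 17.0 CPM in SFN+ZA and 451 ± 87.8 in vehicle), the replication clamp PCNA (-0.36 ± 0.24; 174 ± 4.63 and 224 ± 54.0 CPM) and RB1 (-0.35 ± 0.26), the pocket protein that CDKs inactivate. The highest were CDK4 (0.21 ± 0.34), CCND3 (0.15 ± 0.44) and the transcription factor E2F1 (0.14 ± 0.49). Their adjusted p ran from 0.86 to 0.93.

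The 7 paralogs of the members include MDM4 and CDKN1C, given above. SESN2, a sestrin induced by ATF4, had 0.40 ± 0.47 in SFN+ZA against vehicle, PLK1 0.075 ± 0.31 and PLK4 -0.0023 ± 0.21. Of 15 stress transcription factors and their targets 12 lay above 0 and 3 below in SFN+ZA against vehicle, with a median of 0.24. The median was 0.066 without SFN 2 and vehicle 2, with the same counts on each side of 0. With the GC trend taken out over all 12 libraries it was 0.12 (11 above, 4 below), beside -0.031 over all genes tested. The highest were the mTORC1 inhibitor DDIT4 (0.69 ± 0.90; 224 ± 19.7 CPM in SFN+ZA and 139 ± 102 in vehicle), CEBPB (0.63 ± 0.54; 238 ± 18.9 and 153 ± 92.8 CPM) and the glutathione-degrading enzyme CHAC1 (0.56 ± 0.80). The lowest were NFE2L2, which encodes NRF2 (-0.25 ± 0.26), KLF6 (-0.15 ± 0.16) and FOXO3 (-0.012 ± 0.12). For DDIT4, CEBPB and CHAC1 the SD in vehicle exceeded the difference between the group means.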

How the data were processed

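In 1 table the authors deposited whole-number counts and FPKM for every gene, with positions and their own log2 fold changes, p-values and adjusted p-values. Their columns of group means were not used. Alignment used HISAT2 with build GRCh37/hg19, per the submitters' processing notes. How reads were counted, and whether by strand, is not given in the sources used here, so counts of genes that overlap others (MDM2, GDF15, PLK3 and SESN1) are less certain. The floor given for a count of 0 covers counting error only. Every per-sample column had a sample (0 without).

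The test was edgeR's quasi-likelihood test (version 4.0.16, R 4.3.3; robust, two-sided) after filterByExpr and TMM, with a mean per group over all 12 libraries and Benjamini-Hochberg adjustment over 15142 genes, called under 0.05. CPM were computed from TMM-scaled totals; the deposited FPKM were used only to compare genes. DESeq2 1.42.0 was an alternative. The GC trend was a lowess curve (span 0.3) of each library's deviation over the GC content of the longest GENCODE v29 transcript, known for 97.4% of genes tested, entered as an offset. These GC fits were chosen after seeing the data. The scripts were tested on simulated data.

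The members and all gene lists were chosen with earlier results of these data known. All members were named; from the lists, MDM4, CDKN2A and, in SFN+ZA against vehicle, the 3 highest and 3 lowest log2 fold changes with a mean of 5 CPM or more; some genes that this rule named are not reported here. ATM was named after its values were seen. Same-numbered SFN and vehicle libraries deviated together (r = 0.617, 0.654 and 0.279 over genes); the other comparisons did not show this in all 3 pairs. Promoter sequences came from RefSeq, with a match for 8 of the 9.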

Additional observations from a re-analysis of the deposited data

How the results depend on the processing

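No member passed the threshold in any of 1233 fitted values over 23 alternatives, of which 12 left out 1 library each. The number of genes called, 0 in all 6 comparisons with 12 libraries, was 21 for SFN+ZA against vehicle and 6 for SFN+ZA against SFN by DESeq2's Wald test, and 52 for SFN+ZA against vehicle without SFN 2 and vehicle 2. With the GC offset and without those 2 libraries, 4 genes were called for SFN, 13 for ZA and 483 for SFN+ZA against vehicle, 58 for SFN+ZA against SFN and 18 for SFN+ZA against ZA. Leaving out 1 library gave 0 to 19 genes for SFN+ZA against vehicle, the most without SFN 2.

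Signs of uncalled members turned under some settings; the causes were not tested. Values given one by one had a log2 fold change of at least 0.2 in size with all libraries, lay apart between groups, or belong to PLK3 or CDKN1A in a comparison with vehicle or SFN. Of 54 values per setting, 6 others turned without SFN 2 and vehicle 2 (of 11 in all; original size up to 0.093). With the GC offset 7 others turned of 15, with the block added 8 of 16, and with the offset and without those libraries 7 of 18 (original size up to 0.197 in each). Without SFN 2 and vehicle 2, the log2 fold change was 0.25 for PLK3 (SFN against vehicle), -0.038 for CDKN1A (ZA against vehicle), -0.19 for CDKN1A and -0.022 for GDF15 (SFN+ZA against vehicle), and -0.022 for CDKN1A (SFN+ZA against SFN). With the GC offset it was 0.069 for PLK3 (SFN), -0.083 for GDF15 (ZA), -0.15 for CDKN1A and -0.19 for GDF15 (SFN+ZA), -0.045 for CDKN1A, -0.18 for GADD45B and -0.15 for GDF15 (SFN+ZA against SFN), and -0.070 for GDF15 (interaction). With the GC offset and without those libraries it was 0.017 for GDF15, -0.0071 for MDM2 and 0.42 for PLK3 (SFN), -0.063 for CDKN1A (ZA), -0.27 for CDKN1A and -0.10 for GDF15 (SFN+ZA), -0.23 for CDKN1A, -0.12 for GDF15 and -0.0097 for PLK3 (SFN+ZA against SFN), and -0.13 for GDF15 and -0.15 for PLK3 (interaction).

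With the replicate number as a block, 0 genes were called in every comparison, as without it, and the block changed no call. Same-numbered libraries correlated best with each other for 4, 1, 4, 4 and 0 of 6 libraries in SFN, ZA and SFN+ZA against vehicle and SFN+ZA against SFN and ZA. The block with the GC offset gave 0.031 for PLK3 (SFN), -0.080 for GDF15 (ZA), -0.14 for CDKN1A and -0.18 for GDF15 (SFN+ZA), -0.018 for CDKN1A, -0.15 for GADD45B and -0.16 for GDF15 (SFN+ZA against SFN), and -0.078 for GDF15 (interaction).

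Leaving out 1 library, SFN against vehicle ran from -0.70 to 0.091 for CDKN1A (above 0 without SFN 2), from -0.80 to 0.059 for GDF15 and from -0.46 to 0.49 for PLK3. SFN+ZA against vehicle ran from -0.18 to 0.32 for CDKN1A and from -0.0080 to 0.65 for GDF15, each below 0 without vehicle 2. CDKN1A ran from -0.022 to 0.78 for SFN+ZA against SFN and from -0.029 to 0.48 for ZA against vehicle. The interaction ran from -0.11 to 0.76 for GDF15 and from -0.16 to 0.79 for PLK3.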

Other observations

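The genes whose log2 CPM tracked a member most closely were searched among the 10388 protein-coding genes that averaged at least 5 CPM, as a description. The libraries share depth and GC trend, which the likeness also reflects. Over 12 libraries CDKN1A was nearest to SLC39A1 (Pearson r = 0.998), GDF15 to TMEM164 (r = 0.995), PLK3 to CUL9 (r = 0.995) and MDM2 to POLR3C (r = 0.967). Without SFN 2 and vehicle 2, over 10 libraries, the nearest were WDR1 for CDKN1A (r = 0.969), TMEM164 again for GDF15 (r = 0.964), SLC6A6 for PLK3 (r = 0.973) and RSF1 for MDM2 (r = 0.979). For GDF15 the nearest gene was thus the same in both sets of libraries, and for CDKN1A, PLK3 and MDM2 it was another.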
